A study of Mus musculus with 15 samples.

Results

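The inflammasome and pyroptosis genes described here are 10 genes chosen by name from the 55335 genes of the table: the sensors Nlrp3, Aim2, Nlrc4 and Naip5, the adaptor Pycard, the proteases Casp1 and Casp4, the pore former Gsdmd and the cytokines Il1b and Il18. RNA-seq was performed on tumor-associated macrophages (TAMs), sorted by flow cytometry with antibodies to CD11b and to the product of Adgre1, from orthotopic liver tumors of C57BL/6 mice. The tumors grew from Hepa1-6 cells, a mouse hepatoma line, carrying control lentivirus (control group) or lentivirus for stable overexpression of miR-144 or miR-451a. Each of the 3 groups had 5 samples, and all samples were labelled untreated. The miRNA was overexpressed in the injected tumor cells and not in the TAMs, and the sources used here gave neither age nor sex of the mice. Hepa1-6 is 1 established line, so the groups differ in how that line was modified. The labels did not say that the 5 samples of a group came from separate mice, and the study's description of its TAM sequencing names fewer replicates than that. The p-values therefore measure the spread between samples, which may in part be technical, and are too small if samples share a mouse.

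Inflammasomes are cytosolic complexes that assemble when a sensor protein meets a microbial or danger signal. In the canonical route the adaptor ASC, encoded by Pycard, links the sensor to caspase-1, which matures IL-1β and IL-18 and cleaves gasdermin D, whose freed part forms pores and drives a lytic death called pyroptosis. In macrophages Nlrp3 and Il1b transcripts are held low and are induced by a priming signal, whereas caspase-1 and gasdermin D are usually present in resting cells. These RNA levels do not measure assembly, cleavage or secretion.

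The miRNAs that set the groups apart are shown with their seed, bases 2 to 8, in capitals, as a reference for what the tumor cells expressed. Mature sequences were taken from RefSeq (GRCm38.p6). Both genes lie close together on chromosome 11, at chr11:78073047-78073066 for miR-144-3p and chr11:78073186-78073207 for miR-451a. The sources used here did not say which arm of miR-144 was meant, so both are given, and the seeds of the 3 sequences differ.
miR-144-5p: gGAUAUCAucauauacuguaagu
miR-144-3p: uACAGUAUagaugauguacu
miR-451a: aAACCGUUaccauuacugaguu

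In TAMs from both miRNA groups, 9 of the 10 genes were higher than in control TAMs, and Casp1 was the gene that did not pass the test. Nlrp3 differed most, followed by the cytokines Il1b and Il18 and the sensor Nlrc4, while Gsdmd, Naip5, Casp4, Aim2 and Pycard differed by smaller steps. The count of 9 of 10 higher has to be read against the whole table, in which 40.5% of the 17101 genes tested were called higher and 16.0% lower in the miR-144 group, and 42.2% higher and 16.3% lower in the miR-451a group. A gene was tested where its mean was at least 0.1 FPKM (fragments scaled by transcript length and by library depth), which all 10 genes passed, and called where the adjusted p of limma on log2(FPKM + 1) was under 0.05. The median log2 difference of the 10 genes was 0.42 for miR-144 and 0.37 for miR-451a, beside 0.10 and 0.11 over all genes tested. The ranges of the 5 control and 5 miRNA samples did not overlap for 9 of 10 genes in either comparison, against 44.5% and 46.0% of all genes tested. Both comparisons use the same 5 control samples. In bulk RNA a higher level cannot be told apart from more cells that express the gene.

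**Figure D1:**
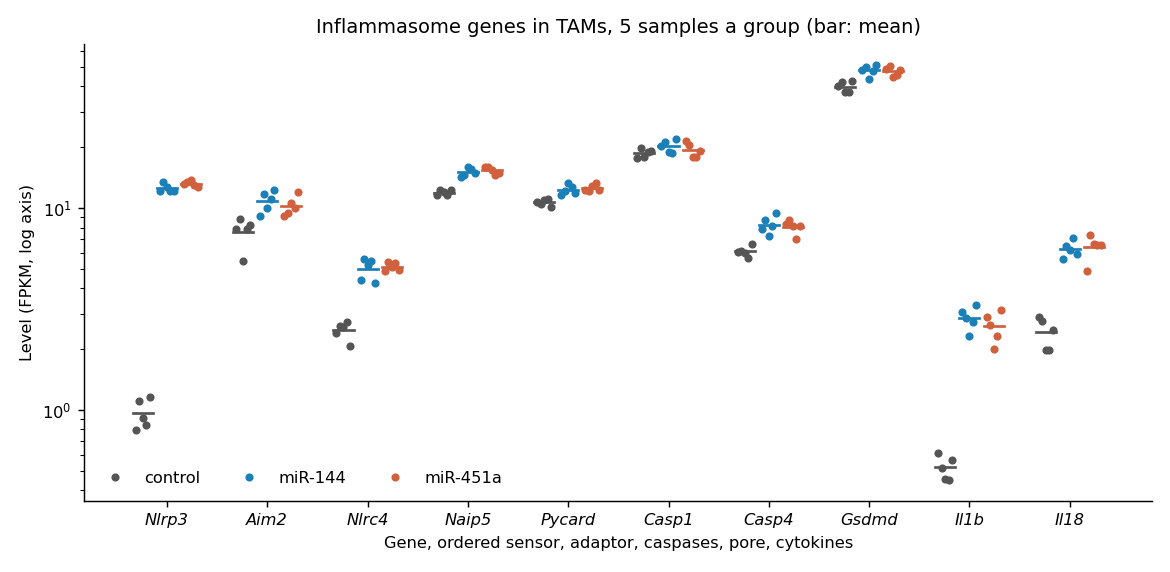
Level of each of the 10 genes in every sample (FPKM, log axis), with 5 points a group and a bar at the group mean, for control (grey), miR-144 (blue) and miR-451a (orange) TAMs. Nlrp3 lies at 0.800 to 1.16 FPKM in control TAMs and at 12.1 to 13.5 FPKM in the miR-144 group, whereas the Casp1 points of the 3 groups overlap.

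The scaling of the libraries bears on the smaller differences. Centring each library on its median moved the median difference of all genes from 0.10 to -0.06 for miR-144 and from 0.11 to -0.06 for miR-451a, and rescaling to TPM moved it to 0.21 and 0.23. Of the genes called in the miR-144 comparison, 71.7% were higher as deposited, 39.8% after median centring and 53.3% after quantile normalization. For miR-451a these shares were 72.2%, 40.0% and 53.6%. Nlrp3, Nlrc4, Naip5, Casp4, Il1b and Il18 remained called higher in both comparisons under each of these scalings, and the genes for which a call ended are named below. Under median centring the log2 differences of Casp4 shrank from 0.38 and 0.35 to 0.22 and 0.18. Those of Naip5 shrank from 0.31 and 0.34 to 0.15 and 0.17.

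The sorted cells were checked with marker lists. All 7 macrophage markers were above 1 FPKM in at least 1 sample of each group, and their summed level ranged from 8657 to 9465 FPKM in control TAMs, from 14633 to 16504 FPKM in the miR-144 group and from 14334 to 15509 FPKM in the miR-451a group. Most of that sum was Lyz2, and 6 of the 7 markers were called higher in both miRNA groups. The other, Cd68, the marker with the next highest level in control, was called lower, at 1378 to 1504 FPKM in control and 882 to 943 and 835 to 976 FPKM in the miRNA groups (log2 differences of -0.65 and -0.67, adjusted p = 6.55e-09 and 4.66e-09). Adgre1, whose product was used for the sort, rose from 131 to 141 FPKM in control to 334 to 394 and 336 to 380 FPKM. The 5 Kupffer cell markers summed to 3.30 to 3.77 FPKM in control, 17.1 to 50.1 FPKM in miR-144 and 15.99 to 47.3 FPKM in miR-451a TAMs. Nearly all of that sum was Cd5l, and Clec4f was listed at 0 in every sample. The 5 monocyte markers summed to 3.65 to 5.33, 9.66 to 14.9 and 9.67 to 13.6 FPKM. The 8 neutrophil markers summed to 65.1 to 79.2, 46.3 to 52.3 and 44.1 to 53.2 FPKM, with 7 of the 8 under 1 FPKM in each group and Csf3r the exception. The sums of the dendritic cell, T cell, B cell, NK cell and hepatocyte or hepatoma lists stayed at or below 0.851, 0.159, 0.131, 0.416 and 0.253 FPKM in every sample, and Alb, Apoa1, Ttr, Serpina1a and Apoc3 were listed at 0. The endothelial list summed to 3.70 to 4.30, 4.67 to 5.02 and 4.66 to 5.93 FPKM. These marker levels moved with the groups, and their part in the differences was not tested.

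Among the 4 sensors, Nlrp3 differed most between the groups. It encodes the sensor that responds to potassium efflux and other signs of cell stress (chr11:59541568-59566956, plus strand, GRCm38 coordinates of GENCODE M21). The levels of Nlrp3 in samples 1 to 5 were 0.800, 1.11, 0.913, 0.841 and 1.16 FPKM in control TAMs, 12.2, 13.5, 12.7, 12.1 and 12.1 FPKM in the miR-144 group and 13.2, 13.4, 13.8, 12.99 and 12.7 FPKM in the miR-451a group. The highest control sample was at 1.16 FPKM and the lowest miRNA sample at 12.1 FPKM, so the groups lay far apart. The ratio of the group means was 12.97 for miR-144 and 13.7 for miR-451a, with log2 differences of 2.78 (SE 0.05, adjusted p = 2.82e-15) and 2.86 (SE 0.05, adjusted p = 1.94e-15). In order of log2 difference Nlrp3 stood at place 18 of 17101 genes for miR-144 and at place 17 for miR-451a. At the depth implied by the values, about 76 to 124 fragments stood behind the control levels.

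The promoter of Nlrp3 is shown because this gene had the largest difference. It holds 1 match to the kappaB consensus, the DNA element bound by NF-kappaB, at position -186 from the annotated start (match in capitals; both strands searched). The window is chr11:59541319-59541618 on the plus strand (RefSeq, GRCm38.p6; 250 bases before to 50 after the start).
Nlrp3: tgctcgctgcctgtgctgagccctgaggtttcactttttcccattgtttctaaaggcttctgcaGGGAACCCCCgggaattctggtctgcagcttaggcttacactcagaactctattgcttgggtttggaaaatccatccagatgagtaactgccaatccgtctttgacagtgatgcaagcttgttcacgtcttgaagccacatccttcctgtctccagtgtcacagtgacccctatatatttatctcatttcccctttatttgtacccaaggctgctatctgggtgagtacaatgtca

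A second RefSeq start of Nlrp3 holds no kappaB match and holds 2 matches to the PU.1 letters GAGGAAG, an element of a macrophage factor. Over the 11 windows available for 9 of the 10 genes, 4 held a kappaB match (the Nlrp3 window above, both overlapping Casp4 windows and Naip5), beside 8.46% of 32851 promoter windows. The PU.1 letters stood in 3 of 11 windows and in 13.6% of all windows. The letters of the interferon-stimulated response element (GAAANNGAAA), of AP-1 (TGANTCA) and of the interferon-gamma activated site (TTCNNNGAA) stood in 0 of 11 windows and in 3.44%, 7.81% and 8.30% of all windows. A match is a description of letters and not of binding.

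Aim2 and Nlrc4 differed by less. Aim2 binds cytosolic DNA (chr1:173350879-173466040, plus strand). In samples 1 to 5, Aim2 measured 7.83, 8.81, 5.47, 7.84 and 8.19 FPKM in control TAMs, 9.10, 11.7, 10.01, 11.1 and 12.3 FPKM in the miR-144 group and 9.11, 9.44, 10.6, 10.01 and 12.04 FPKM in the miR-451a group. The highest control sample, at 8.81 FPKM, lay just under the lowest samples of the miRNA groups, at 9.10 and 9.11 FPKM. Aim2 was 1.42-fold higher with miR-144 and 1.34-fold with miR-451a, with log2 differences of 0.46 (SE 0.11, adjusted p = 0.00180) and 0.39 (SE 0.11, adjusted p = 0.00569). The miR-451a call for Aim2 ended under median centring (adjusted p = 0.0906), under quantile normalization (adjusted p = 0.0536) and with only the samples numbered 1, 2 and 5 (adjusted p = 0.113).

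Nlrc4 assembles the inflammasome that answers bacterial flagellin and secretion systems, and NAIP proteins bind the ligand for it. Across samples 1 to 5, Nlrc4 stood at 2.40, 2.61, 2.59, 2.72 and 2.06 FPKM in control TAMs, 4.41, 5.60, 5.22, 5.49 and 4.25 FPKM in the miR-144 group and 4.90, 5.40, 5.09, 5.31 and 4.92 FPKM in the miR-451a group. The lowest of the 10 miRNA samples was at 4.25 FPKM and the highest control sample at 2.72 FPKM. The ratio of means was 2.02 and 2.07, with log2 differences of 0.78 (SE 0.07, adjusted p = 1.44e-07) and 0.82 (SE 0.07, adjusted p = 8.05e-08).

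Naip5, which binds flagellin, started from a higher level and rose less. The levels of Naip5 in samples 1 to 5 were 11.7, 12.2, 11.9, 11.6 and 12.2 FPKM in control TAMs, 14.3, 14.6, 15.9, 15.5 and 14.9 FPKM in the miR-144 group and 15.9, 15.9, 15.4, 14.6 and 14.9 FPKM in the miR-451a group. The groups did not overlap, and Naip5 was 1.26-fold and 1.29-fold higher, with log2 differences of 0.31 (SE 0.04, adjusted p = 2.21e-06) and 0.34 (SE 0.04, adjusted p = 8.06e-07). The level of Naip5 over that of Nlrc4 was 4.87 ± 0.633 (SD, n = 5) in control TAMs, beside 3.04 ± 0.347 and 2.998 ± 0.182 in the miR-144 and miR-451a groups. The level of Naip5 is uncertain because 36.9% of all runs of 50 bases in its transcript are found elsewhere in the annotation, 22.3% in Naip6.

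Pycard encodes ASC, the adaptor that joins sensors to caspase-1. In samples 1 to 5, Pycard measured 10.7, 10.5, 10.99, 11.1 and 10.1 FPKM in control TAMs, 11.6, 12.2, 13.3, 12.8 and 11.9 FPKM in the miR-144 group and 12.3, 12.2, 12.8, 13.2 and 12.3 FPKM in the miR-451a group. Every miRNA sample was above every control sample, by a narrow margin. Pycard was 1.16-fold and 1.18-fold higher, with log2 differences of 0.19 (SE 0.04, adjusted p = 0.000605) and 0.22 (SE 0.04, adjusted p = 0.000196). Both calls ended under median centring (adjusted p = 0.578 and 0.382) and quantile normalization (adjusted p = 0.141 and 0.0707). Pycard shares 485 exonic bases with Gm45205 on the other strand, and whether reads were counted by strand was not given in the sources used here.

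The caspase genes Casp1 and Casp4 are neighbours on chromosome 9, 1562 bases apart, and behaved differently. Casp1 encodes the protease of the canonical inflammasome (chr9:5298517-5307265, plus strand). Across samples 1 to 5, Casp1 stood at 17.7, 19.9, 17.9, 18.8 and 19.2 FPKM in control TAMs, 20.3, 21.3, 18.9, 18.7 and 21.9 FPKM in the miR-144 group and 21.5, 20.5, 17.9, 17.9 and 19.1 FPKM in the miR-451a group. The 3 groups overlapped throughout. The log2 differences of Casp1 were 0.10 (95% interval -0.02 to 0.23, adjusted p = 0.133) and 0.04 (-0.08 to 0.17, adjusted p = 0.533), which places Casp1 near the middle of all genes, at place 8553 and 10326 of 17101. After rescaling to TPM the miR-144 difference passed the test at 0.18 (adjusted p = 0.0220), and after median centring the differences were -0.06 and -0.13 (adjusted p = 0.412 and 0.0637).

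Casp4 is the mouse gene for caspase-11, which binds bacterial lipopolysaccharide in the cytosol and cleaves gasdermin D without caspase-1 (chr9:5308828-5336783, plus strand). The levels of Casp4 in samples 1 to 5 were 6.07, 6.14, 5.99, 5.65 and 6.66 FPKM in control TAMs, 7.84, 8.67, 7.30, 8.12 and 9.41 FPKM in the miR-144 group and 8.32, 8.72, 8.14, 7.04 and 8.10 FPKM in the miR-451a group. The lowest miRNA sample, at 7.04 FPKM, was above the highest control sample, at 6.66 FPKM. Casp4 was 1.36-fold and 1.32-fold higher, with log2 differences of 0.38 (SE 0.06, adjusted p = 9.47e-05) and 0.35 (SE 0.06, adjusted p = 0.000193). The ratio of Casp1 to Casp4 was 3.07 ± 0.202 (SD, n = 5) in control, 2.45 ± 0.137 in miR-144 and 2.40 ± 0.157 in miR-451a TAMs, and the miRNA groups did not overlap control.

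The promoters of this pair are set side by side because the genes adjoin and only the call of Casp4 passed. The Casp4 window, chr9:5308599-5308898 on the plus strand, holds 2 separate stretches that match the kappaB consensus (capitals), and the Casp1 window, chr9:5298267-5298566 on the plus strand, holds none of the motifs searched.
Casp1: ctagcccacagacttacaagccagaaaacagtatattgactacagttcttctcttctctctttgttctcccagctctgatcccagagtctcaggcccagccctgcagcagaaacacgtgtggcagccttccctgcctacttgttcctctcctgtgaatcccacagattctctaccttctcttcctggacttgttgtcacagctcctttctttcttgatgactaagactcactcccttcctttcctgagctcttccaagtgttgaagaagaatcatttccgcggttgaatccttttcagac
Casp4: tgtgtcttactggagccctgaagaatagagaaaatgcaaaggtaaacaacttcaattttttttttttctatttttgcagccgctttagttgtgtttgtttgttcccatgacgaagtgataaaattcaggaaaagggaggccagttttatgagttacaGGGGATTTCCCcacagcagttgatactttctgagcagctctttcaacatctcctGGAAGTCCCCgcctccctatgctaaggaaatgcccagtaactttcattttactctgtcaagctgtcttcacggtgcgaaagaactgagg

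Gsdmd, the pore former that both caspases cleave, had the highest level of the 10 genes in every group. In samples 1 to 5, Gsdmd measured 40.1, 41.9, 37.6, 37.4 and 42.6 FPKM in control TAMs, 48.3, 49.8, 43.6, 47.8 and 51.2 FPKM in the miR-144 group and 48.7, 50.7, 44.8, 45.4 and 47.98 FPKM in the miR-451a group. The lowest miRNA sample, at 43.6 FPKM, was just above the highest control sample, at 42.6 FPKM. Gsdmd was 1.21-fold and 1.19-fold higher, with log2 differences of 0.26 (SE 0.05, adjusted p = 0.000352) and 0.25 (SE 0.05, adjusted p = 0.000600). These calls ended under median centring (adjusted p = 0.0841 and 0.196).

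The cytokine genes showed larger differences from lower levels. Il1b encodes the precursor of IL-1β, the secreted mediator of fever and neutrophil recruitment (chr2:129364570-129371139, minus strand). Across samples 1 to 5, Il1b stood at 0.613, 0.514, 0.457, 0.450 and 0.562 FPKM in control TAMs, 3.06, 2.86, 2.33, 2.72 and 3.29 FPKM in the miR-144 group and 2.90, 2.62, 1.99, 2.33 and 3.14 FPKM in the miR-451a group. Control samples did not exceed 0.613 FPKM, or about 14 to 20 fragments, and no miRNA sample was below 1.99 FPKM. The ratio of means was 5.49 and 5.002, with log2 differences of 1.34 (SE 0.09, adjusted p = 2.67e-09) and 1.24 (SE 0.09, adjusted p = 6.42e-09). On log2(FPKM + 0.1), which compresses low levels less, these differences were 2.25 and 2.11. The Il1b promoter is shown as that of the cytokine with the larger ratio. Its window, chr2:129371090-129371389 on the minus strand, holds a TATA box (TATAAA, capitals) at position -31 from the start, a motif found in 3 of the 11 windows and in 13.6% of all promoters.
Il1b: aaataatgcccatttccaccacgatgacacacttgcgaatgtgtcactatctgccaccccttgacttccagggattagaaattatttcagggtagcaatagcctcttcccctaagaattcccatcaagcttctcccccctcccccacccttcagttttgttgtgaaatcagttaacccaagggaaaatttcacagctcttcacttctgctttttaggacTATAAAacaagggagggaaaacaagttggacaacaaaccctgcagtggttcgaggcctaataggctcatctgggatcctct

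Il18 encodes the precursor of IL-18, which drives interferon-γ production by lymphocytes. The levels of Il18 in samples 1 to 5 were 2.88, 2.76, 1.99, 1.98 and 2.49 FPKM in control TAMs, 5.57, 6.52, 6.16, 7.11 and 5.90 FPKM in the miR-144 group and 4.89, 7.39, 6.67, 6.58 and 6.52 FPKM in the miR-451a group. The lowest miRNA sample was at 4.89 FPKM and the highest control sample at 2.88 FPKM. Il18 was 2.58-fold and 2.65-fold higher, with log2 differences of 1.09 (SE 0.10, adjusted p = 1.66e-07) and 1.11 (SE 0.10, adjusted p = 1.21e-07). Il18 over Il1b was 4.65 ± 0.423 (SD, n = 5) in control TAMs, beside 2.23 ± 0.414 and 2.55 ± 0.660, without overlap with control.

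**Figure D2:**
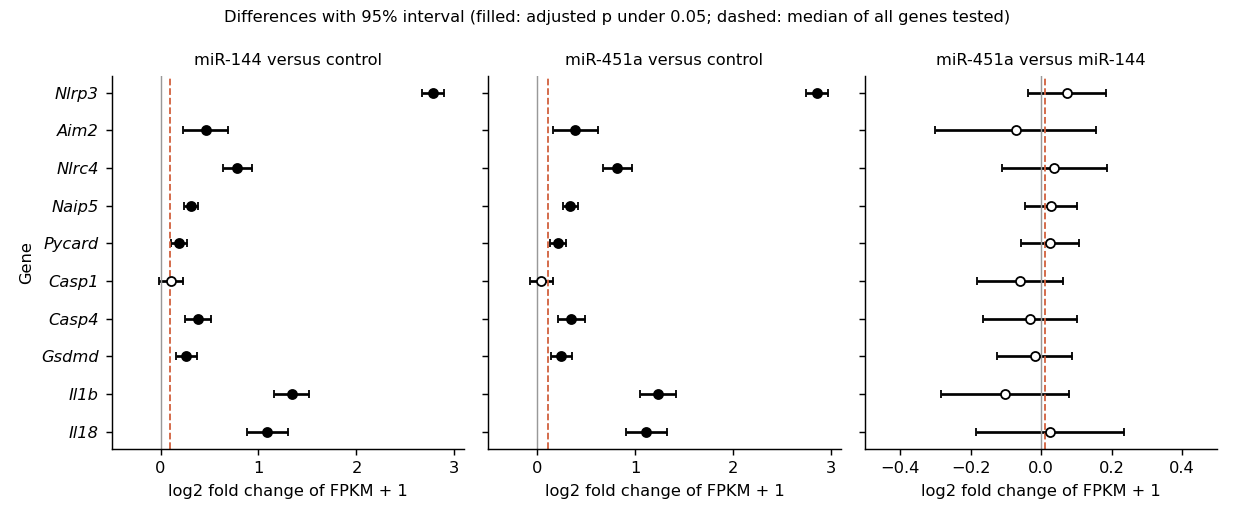
Log2 difference of FPKM + 1 with its 95% interval for each gene in the 3 comparisons, with filled points where the adjusted p is under 0.05 and a dashed line at the median of all genes tested. Nlrp3 reaches 2.78 and 2.86 against control, and all 10 intervals of miR-451a versus miR-144 span 0.

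The order of levels changed chiefly through Nlrp3. In control TAMs the order was Gsdmd, Casp1, Naip5, Pycard, Aim2, Casp4, Nlrc4, Il18, Nlrp3 and Il1b, and sample ranges overlapped between Aim2 and Casp4 and between Nlrc4 and Il18. In both miRNA groups Nlrp3 was at place 4 instead of 9, behind Gsdmd, Casp1 and Naip5, and its range overlapped that of Pycard. The mean levels there were 12.5 FPKM for Nlrp3 and 12.3 FPKM for Pycard with miR-144, and 13.2 and 12.6 FPKM with miR-451a. Pycard over Nlrp3 was 11.3 ± 2.13 (SD, n = 5) in control TAMs, 0.987 ± 0.0650 in the miR-144 group and 0.951 ± 0.0439 in the miR-451a group. Casp1 over Nlrp3 was 19.7 ± 2.57, 1.62 ± 0.126 and 1.47 ± 0.130. FPKM is a level per transcript length, so these are comparisons of RNA levels between genes. The places of Naip5 and Pycard are uncertain, because Naip5 shares sequence with its family and Pycard overlaps Gm45205, as given above.

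**Figure D3:**
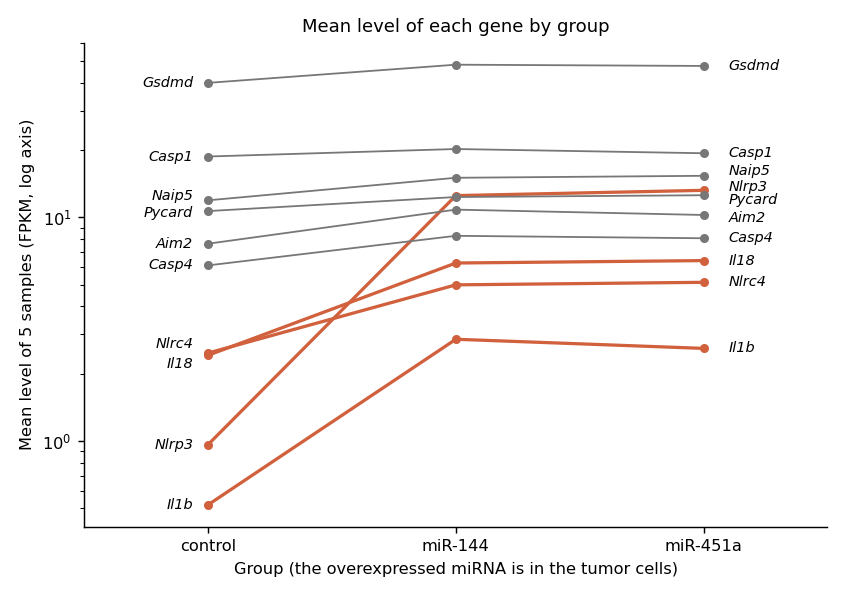
Mean FPKM of 5 samples (log axis) for each gene in control, miR-144 and miR-451a TAMs, with Nlrp3, Il1b, Il18 and Nlrc4 in orange. Nlrp3 climbs from 0.965 FPKM to 12.5 and 13.2 FPKM while Gsdmd, Casp1, Naip5, Pycard, Aim2 and Casp4 differ from control by at most 1.42-fold.

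The miR-144 and miR-451a groups were compared with each other to ask whether the miRNAs differed. None of the 10 genes was called by limma, and 0 had an unadjusted p under 0.05. The same comparison called 1 gene of 17101, 0.00585%, which was AA413626, lower with miR-451a (log2 difference -0.34, adjusted p = 0.0497). No gene of the 10 had groups without overlap, against 0.918% of all genes tested. The log2 difference of Nlrp3 was 0.07 (95% interval -0.04 to 0.18), that of Il1b was -0.10 (-0.28 to 0.08) and that of Il18 was 0.03 (-0.18 to 0.23). The widest interval belonged to Aim2, -0.30 to 0.16, and the narrowest to Naip5, -0.05 to 0.10. Differences within these intervals were not detectable at this spread between samples.

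A list of 45 other genes of the pathway was examined by role. Of the 40 that passed the filter, 17 were higher and 9 lower with miR-144, and 17 higher and 10 lower with miR-451a, with a median log2 difference of 0.10 and 0.19. Over all genes tested, 40.5% and 42.2% were called higher and 16.0% and 16.3% lower, with a median of 0.10 and 0.11. After median centring 15 were higher and 15 lower with miR-144, and 14 and 15 with miR-451a. Under quantile normalization these counts were 16 and 15, and 15 and 14. Some calls also depended on single samples. Without control sample 3, Nlrp1a lost its miR-144 call (adjusted p from 0.0474 to 0.0809) and Nlrp10 its miR-451a call (from 0.0410 to 0.0969). Without that sample, Gbp2 (adjusted p = 0.00673 and 0.0153) and Irf1 (0.0220 and 0.0136) were called higher in both comparisons. The 5 genes below the filter were Nlrp6, Nlrp12, Il33, Il18r1 and Il1r2, and Il1r2, the decoy receptor for IL-1, ranged from 0 to 0.123 FPKM over all samples.

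Sensors outside the 10 genes moved in both directions. Nlrp1b had the largest mean difference of the list on log2(FPKM + 1), from 1.61 to 2.54 FPKM in control to 7.43 to 9.28 and 8.08 to 9.66 FPKM, with log2 differences of 1.64 (SE 0.08, adjusted p = 7.6e-11) and 1.72 (SE 0.08, adjusted p = 3.93e-11). In the Naip family, Naip6, another flagellin receptor, rose with Naip5, from 8.42 to 8.93 FPKM to 11.04 to 12.96 and 11.3 to 13.2 FPKM. Naip2, which binds the rod protein of bacterial secretion systems, fell from 17.5 ± 0.482 (SD, n = 5) to 16.2 ± 0.611 and 16.2 ± 0.617 FPKM, a call that ended on rescaling to TPM (adjusted p = 0.434 and 0.659). Without miR-451a sample 4, the miR-451a call for Naip2 ended too (adjusted p = 0.0507). Naip1, which binds the needle protein, fell from 0.533 ± 0.125 to 0.0535 ± 0.0192 and 0.0850 ± 0.0352 FPKM (SD, n = 5), and about 3 to 20 fragments stood behind its miRNA-group levels. Naip1, Naip2 and Naip6 share 32.5%, 19.4% and 21.5% of such runs with other genes, so their values are uncertain.

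Of 12 licensing and upstream genes, 7 were higher and 0 lower in each comparison, with medians of 0.43 and 0.55. Over all genes tested, 40.5% and 42.2% were higher and 16.0% and 16.3% lower, with medians of 0.10 and 0.11. Txnip, a thioredoxin-binding protein tied to Nlrp3 activation, rose from 57.5 to 84.9 FPKM to 220 to 256 and 159 to 259 FPKM. Zbp1, a nucleic acid sensor that starts several death routes, rose from 7.53 to 8.83 FPKM to 16.0 to 22.2 and 13.2 to 23.1 FPKM. Nek7, a kinase that binds Nlrp3, had log2 differences of -0.03 and 0.34 (adjusted p = 0.937 and 0.256). The miR-451a value rested on sample 4, at 14.2 FPKM where the other 4 samples were at 3.78 to 4.13 FPKM, and without that sample the difference was 0.01 (adjusted p = 0.838). Irf8, which controls Naip transcription, was called higher (log2 differences of 0.67 (SE 0.21, adjusted p = 0.0123) and 0.68 (SE 0.21, adjusted p = 0.0108)), although its groups overlapped because 1 control sample stood at 24.7 FPKM. Irf2, a regulator of Gsdmd, had log2 differences of -0.03 and -0.01 (adjusted p = 0.371 and 0.724), and was called lower under median centring and quantile normalization.

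Of 9 caspases, pores and lysis genes, 4 were higher and 4 lower with miR-144, and 3 higher and 4 lower with miR-451a. The shares over all genes tested were 40.5% and 42.2% higher and 16.0% and 16.3% lower. Casp8, an initiator caspase that can replace caspase-1 in some settings, was 1.29-fold and 1.25-fold higher, with log2 differences of 0.35 (SE 0.04, adjusted p = 3.73e-06) and 0.31 (SE 0.04, adjusted p = 1.36e-05). Ninj1, which ruptures the plasma membrane after gasdermin pores form, was higher with miR-144 (log2 difference 0.52, adjusted p = 0.00228), and its miR-451a difference of 0.26 missed the threshold (adjusted p = 0.0866). Without miR-451a sample 4 that difference was 0.32 and passed (adjusted p = 0.0460). The difference between the miRNA groups in Ninj1 did not pass either (-0.26, adjusted p = 0.907). Gsdme, the gasdermin cleaved by caspase-3, moved opposite to Gsdmd, from 1.21 to 1.41 FPKM in control to 0.502 to 0.635 and 0.538 to 0.656 FPKM, with log2 differences of -0.58 (SE 0.04, adjusted p = 3.51e-09) and -0.55 (SE 0.04, adjusted p = 6.7e-09). Casp6 and Ripk3 were also called lower in both comparisons.

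The inhibitors moved in opposite directions. Trim30a, a negative regulator of Nlrp3 activation, rose from 19.4 to 25.7 FPKM to 51.5 to 64.4 and 51.1 to 64.1 FPKM. Serpinb1a, a protease inhibitor that restrains inflammatory caspases, fell from 1.37 to 2.45 FPKM to 0.119 to 0.269 and 0.122 to 0.188 FPKM, with about 5 to 11 fragments in the miRNA samples. Nlrc3 was also higher in both comparisons, and Tnfaip3 was not called, although its miR-144 difference of -0.33 passed when control sample 5, miR-144 sample 3 or miR-144 sample 4 was left out (adjusted p = 0.0166, 0.0378 and 0.0479).

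In the IL-1 family, genes of the IL-1 branch moved in both directions, and Il18rap was higher with Il18. Il1a, the other IL-1 ligand, fell from 0.668 ± 0.0473 to 0.269 ± 0.0613 and 0.238 ± 0.118 FPKM (SD, n = 5), opposite to Il1b. About 7 to 16 and 2 to 17 fragments stood behind its miR-144 and miR-451a levels. Il1r1, the signalling receptor for both ligands, fell from 3.04 to 3.42 FPKM to 0.451 to 0.837 and 0.717 to 1.01 FPKM, with log2 differences of -1.33 (SE 0.06, adjusted p = 1.08e-10) and -1.21 (SE 0.06, adjusted p = 3.36e-10). Il1rn, the receptor antagonist, had a log2 difference of 0.11 with miR-144 (adjusted p = 0.510) and of 0.41 with miR-451a (adjusted p = 0.0171), and the latter call ended under median centring (adjusted p = 0.139). Il18rap, a chain of the IL-18 receptor, rose from 0.118 to 0.222 FPKM to 0.820 to 1.11 and 0.915 to 1.45 FPKM, with log2 differences of 0.75 (SE 0.06, adjusted p = 5.13e-08) and 0.96 (SE 0.06, adjusted p = 2.86e-09), and about 14 to 30 fragments stood behind its control levels. Il18bp, which neutralises IL-18, had log2 differences of -0.00 and -0.07 (adjusted p = 0.992 and 0.647). Between the miRNA groups 0 of the 40 genes were called by limma, and P2rx7, Il1rn and Il18rap had an unadjusted p under 0.05, as did 5.47% of all genes tested. These 3 were picked after their values were seen.

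**Figure D4:**
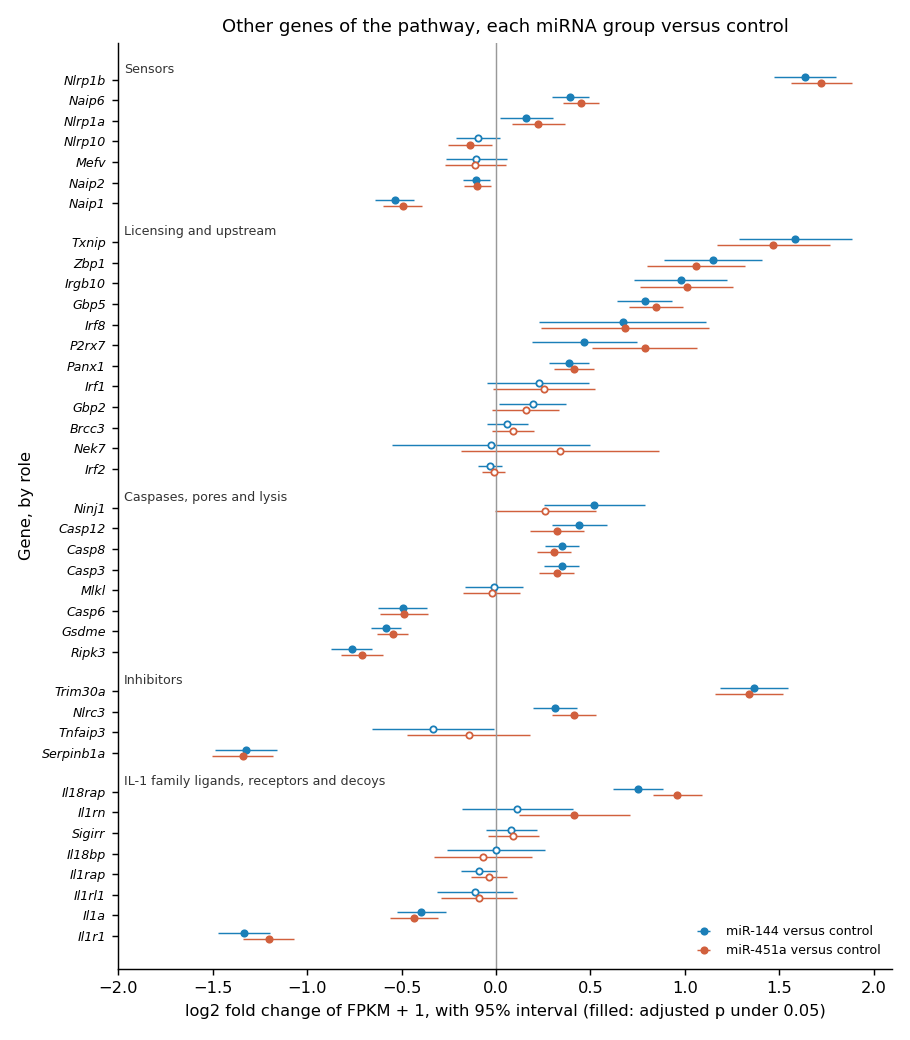
Log2 difference of FPKM + 1 with its 95% interval for 39 of the 40 tested genes of the pathway list, by role, for miR-144 (blue) and miR-451a (orange) versus control, filled where the adjusted p is under 0.05. The 12 licensing and upstream genes hold 7 higher and 0 lower calls in each comparison. Over all genes tested, 40.5% and 42.2% were called higher and 16.0% and 16.3% lower. Gsdme, Ripk3, Serpinb1a, Il1a and Il1r1 lie left of 0.

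Within groups, some of the 10 genes shifted with the sample number given in the labels. In each of the 3 groups the samples numbered 3 and 4 had the 2 lowest levels of Il1b and Gsdmd and the 2 highest levels of Pycard. Casp1 was also lowest in samples 3 and 4 of both miRNA groups, but in control its lowest samples were 1 and 3. Cd5l was highest in the same samples, at 38.4 to 48.9 FPKM in samples 3 and 4 of the miRNA groups and 15.3 to 19.7 FPKM in samples 1, 2 and 5. The labels do not say what a number marks. A fit with the number as a block called the same 9 genes in both comparisons, and the SE of Il1b fell from 0.09 to 0.05 and that of Gsdmd from 0.05 to 0.03. With only the samples numbered 1, 2 and 5, an alternative chosen after the data were seen, 9 of the 10 genes were called higher for miR-144 and 8 for miR-451a, where Aim2 lost its call. Over all 17101 genes tested that fit called 7741 for miR-144, 70.2% of them higher, and 8213 for miR-451a, 70.6% of them higher.

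**Figure D5:**
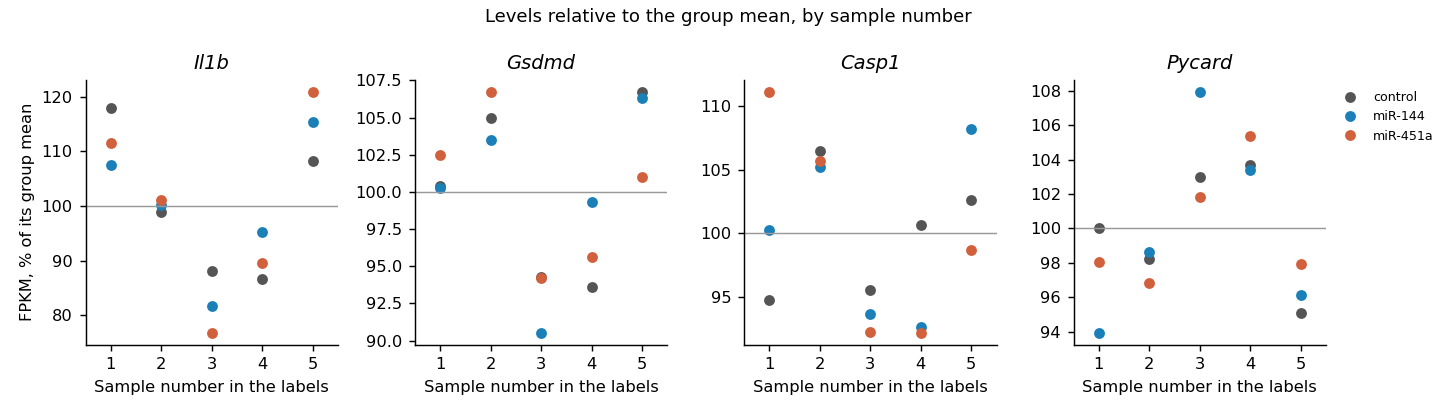
FPKM of Il1b, Gsdmd, Casp1 and Pycard as a percentage of the group mean, by the sample number of the labels, for control (grey), miR-144 (blue) and miR-451a (orange). Samples 3 and 4 lie below 100% for Il1b and Gsdmd and above 100% for Pycard in every group.

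Over the 15 deviations from the group means, Pearson's r between pairs of the 10 genes ranged from -0.85 to 0.82 with a median of 0.15 over 45 pairs. Gsdmd and Casp4 had the highest r, 0.82, followed by Gsdmd with Casp1 at 0.74 and with Il1b at 0.71. Pycard ran opposite to Gsdmd (-0.85), Il1b (-0.73), Casp4 (-0.73) and Casp1 (-0.69). Among the 11418 genes averaging 1 FPKM or more, the genes most like Nlrp3 were Acap3, Mios and Fbf1 (r 0.85, 0.83 and 0.82), and those most like Il1b were Lrrc20, Xylt1 and Dusp18 (0.94, 0.92 and 0.91). Casp1 was most like Setdb2, 5730508B09Rik and Edem1 (0.91, 0.90 and 0.90), and Naip5 most like Tlr8, Ralgapa1 and Zfp871 (0.88, 0.86 and 0.86). These values describe 15 samples that share libraries and the number pattern above. The genes named as most like were picked for the highest r among 11418, so a high r was to be found. Whether these r exceed those of unrelated genes was not tested.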

How the data were processed

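TAMs sorted from Hepa1-6 liver tumors were profiled by RNA-seq, with 5 samples in each of 3 groups (control, miR-144, miR-451a) assigned from the GEO labels. The authors deposited 1 table of FPKM values per gene. The submitters' processing notes list FastQC 0.11.2, STAR and StringTie, and the genome build was not given in the sources used here. Gene coordinates came from GENCODE M21 (GRCm38), in which 99.67% of the 55335 identifiers were found. Low FPKM values implied a depth of 15500000 to 30300000 fragments a sample. Since 34.8% to 49.1% of low values lay on whole steps (tolerance 0.05, 10% by chance), counts were not recovered and fragment numbers are rough, covering counting error only.

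Values were analysed as log2(FPKM + 1) for the 17101 genes averaging 0.1 FPKM or more. limma 3.58.1 (R 4.3.3) was fitted to the 3 groups together with a mean-variance trend, and p-values were adjusted by Benjamini-Hochberg over all genes tested at a threshold of 0.05. The fit was tested on simulated data. No pair of samples within a group held identical values. All 10 genes and 43 of the 45 pathway genes were matched by symbol, and Irgb10 and Gsdme by identifier or synonym. Pathway genes were named for their role, beside the 6 with the largest mean log2 difference among those called in both control comparisons. The members, lists and tests were chosen with earlier results of these data known. The values of 1 gene of the pathway list are not reported here. Alternatives were another pseudocount, other filters, median centring, quantile normalization, TPM, a replicate block, no trend, only the 2 groups compared and each sample left out. Promoter windows and miRNAs were read from RefSeq (GRCm38.p6), with 11 windows for 9 of the 10 genes and none matched for Gsdmd. Python 3.11.15, pandas 2.3.3 and matplotlib 3.10.9 were used for summaries and plots.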

Additional observations from a re-analysis of the deposited data

Results flagged for a closer look

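Gaps between samples were examined in 87 groups of 5 samples, over the 10 genes and 19 of the pathway genes. In 8 of them 1 sample stood apart by more than 0.71 of the group's range, where chance gives about 4.3, and none of the 8 belonged to the 10 inflammasome genes. Irf8 gave 3 of them, at 24.7 FPKM in control sample 2 (next highest 14.9), 42.4 FPKM in miR-144 sample 4 (next 25.5) and 41.4 FPKM in miR-451a sample 4 (next 25.1). Nek7 was at 14.2 FPKM in the same miR-451a sample 4 (next 4.13). Casp8 was low at 24.3 FPKM in miR-451a sample 1, Ninj1 at 39.9 FPKM in control sample 4 and Serpinb1a at 0.122 FPKM in miR-451a sample 5. Il1r2 was at 0.0949 FPKM in control sample 3, or about 3 fragments.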

How the results depend on the processing

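Counts of the 10 genes called against control stayed within 1.5 times of 9 under each alternative run, with 7 and 6 under median centring, 8 and 7 under quantile normalization, 10 and 9 after TPM rescaling, 7 and 7 of 8 genes tested with a mean of at least 5 FPKM, and 9 without any 1 sample. The filter of 5 FPKM left 14 and 12 calls in the pathway list and 4776 and 4821 over all genes for miR-144 and miR-451a, because fewer genes were tested. Over all genes, 8978 and 9310 were called under median centring, 8606 and 8894 under quantile normalization and 10218 and 10569 after TPM rescaling. Of these calls, 39.8% and 40.0%, 53.3% and 53.6%, and 77.4% and 78.4% were higher. The counts of the 10 genes thus moved with the whole table. The single gene called between miR-451a and miR-144 became 0 under a pseudocount of 0.1, no filter, filters of 1 and 5 FPKM, median centring, quantile normalization, TPM, the replicate block and only the 2 groups, 2 without the trend, and 0 to 3 without 1 sample. Casp1 changed sign, at -0.057 for miR-144 and -0.126 for miR-451a under median centring and -0.025 for miR-451a under quantile normalization (the cause was not tested). Between the miRNA groups, leaving out 1 sample gave log2 differences from -0.069 to 0.012 for Casp4, from -0.052 to 0.004 for Gsdmd, from -0.009 to 0.073 for Nlrc4 and from -0.022 to 0.106 for Il18, none of them called. Same-numbered samples correlated on average at -0.014 (control and miR-144), 0.113 (control and miR-451a) and 0.081 (miR-144 and miR-451a). Samples with other numbers correlated at 0.004, -0.028 and -0.020. The lowest same-number values were -0.114, 0.052 and -0.116, and the highest 0.080, 0.230 and 0.190. Since not every pair exceeded 0.1 and the labels do not tie the numbers, they were not taken as pairs, although 7 of 15 samples matched best with their own number and samples 3 and 4 shifted together in some genes. With a replicate block 9 and 9 of the 10 genes were called and 26 and 27 of the pathway list, the counts without it, and the block changed no call of the 10 genes.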
